A study of Mus musculus with 21 samples.

Results

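Ccl5, also called RANTES, is a secreted chemokine that attracts T cells, monocytes and eosinophils through receptors that include Ccr1 and Ccr3. It is 1 of 18193 genes that the array measured with a probe set annotated to a single gene, and 1 probe set stood for it among 45101. The gene was chosen by the measured response itself: at 24 h its log2 difference from PBS ranked 1 among 12446 tested genes with TNF plus anti-LTBR, 1 with TNF and 3 with anti-LTBR. Its own 24 h levels and differences are therefore given as a description, with errors and without tests. No other probe set was available against which to check its values.

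The arrays were hybridised with RNA from cultured aortic smooth muscle cells of male C57BL/6J mice aged 10 to 12 weeks, kept in DMEM/F12 with 10% FCS and fed 24 h before the agonists were added in PBS. The groups at 24 h were TNFalpha at 1 ng/ml together with an antibody to LTBR at 10 µg/ml (3 arrays), TNFalpha alone at 1 ng/ml (4 arrays), the antibody alone at 10 µg/ml (4 arrays) and PBS (4 arrays). At 2 h and at 6 h there was 1 array each for TNF, anti-LTBR and PBS, and none for both agonists. The series title names combined TNFR1 and LTBR signalling to NF-kB and smooth muscle cells as lymphoid tissue organizers.

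TNF acts through TNFR1 mainly on the canonical NF-kB arm, in which RelA-containing dimers enter the nucleus. The lymphotoxin beta receptor, LTBR, is engaged here by an agonist antibody and also uses the alternative arm, in which the Nfkb2 product p100 is processed to p52 and pairs with RelB. The Ccl5 promoter is known to be bound by NF-kB and by interferon regulatory factors, and fibroblasts and smooth muscle cells as well as lymphocytes can make the chemokine.

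The 15 arrays at 24 h and the 6 earlier ones carry the numbers 0 to 3. The arrays of number 0, which include all 6 at 2 h and 6 h, stood apart. The summed signal of 6 endothelial markers was 7664 to 9056 on the 3 arrays numbered 0 at 24 h and 6654 to 7753 on the 6 earlier arrays, against 514.6 to 1044 on the 12 arrays numbered 1 to 3. The combination had no array numbered 0. The summed smooth muscle markers, Acta2, Myh11, Tagln, Cnn1, Smtn, Lmod1 and Des, lay between 30177 and 47136 on all 21 arrays, and 6 of the 7 were above the array median on every array. Myh11, smooth muscle myosin heavy chain, read 110.7 to 202.0 on the arrays numbered 0, against 529.2 to 3337.8 on those numbered 1 to 3. Of the 7, limma called Tagln, an actin-binding protein, lower with both agonists (log2 difference −0.30, adjusted p = 0.044). Over all genes 79 of 12446 were called lower in that comparison. With the number as a block, Myh11, Tagln, Cnn1, Smtn and Lmod1 were lower with both agonists (1290 of 12446 over all genes). The block also called 4 of the 7 lower with TNF (358 of 12446 over all genes) and 2 with anti-LTBR (277 of 12446). T and NK cells are a known source of Ccl5, and 8 of their 10 measured markers were below the array median on all 21 arrays. Cd8a, at 266.3 to 638.0, was above it on all 21, and Prf1, at 87.4 to 182.4, on some. At 24 h their summed signal was 904.7 to 1058 in number 3, against 574.5 to 860.3 in the other numbers. The levels, differences and joint effect of Ccl5 at 24 h are given below both with and without number 0. A higher signal in these bulk samples cannot tell more cells that make the transcript from more transcript per cell.

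At 24 h the Ccl5 signal differed by orders of magnitude between the groups, and their ranges did not overlap. With TNF plus anti-LTBR the arrays numbered 1, 2 and 3 read 5704.1, 5885.3 and 4115.4. With TNF alone the arrays numbered 0 to 3 read 656.0, 1470.9, 1534.7 and 1365.7. With anti-LTBR alone they read 107.7, 190.2, 322.9 and 268.4, and with PBS 89.8, 13.2, 10.1 and 17.0. The lowest array with both agonists was well above the highest with TNF, and all TNF arrays were above all anti-LTBR arrays. The narrowest gap lay between anti-LTBR and PBS, where the lowest value, 107.7, and the highest, 89.8, were both on arrays numbered 0, and this gap was smaller than the SD of either group.

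**Figure D1:**
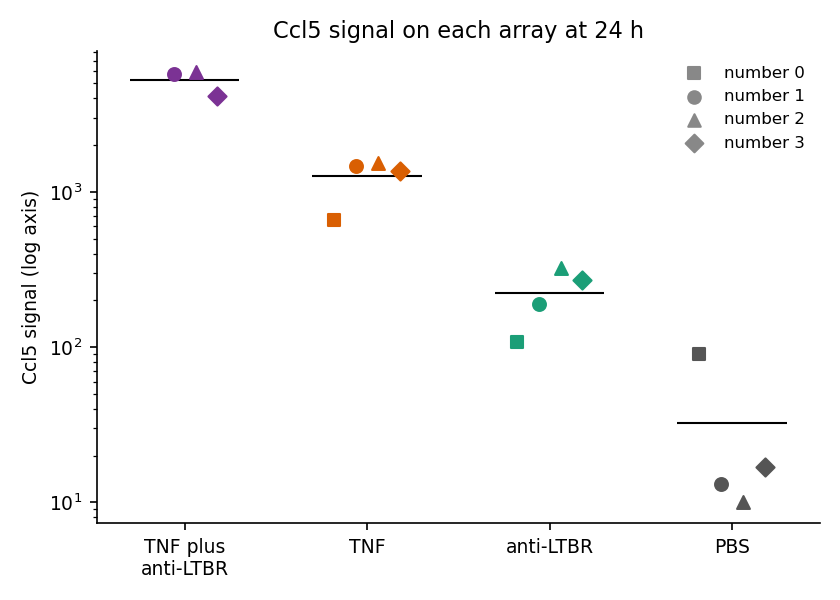
Ccl5 signal on each of the 15 arrays at 24 h, on a log axis, by group. Symbols mark the array number and lines the group means; the 4 groups do not overlap, and the squares of number 0 lie lowest with TNF and with anti-LTBR and highest with PBS.

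The group means followed the same order. The signal averaged 5235 ± 974 with both agonists (SD, n = 3), 1257 ± 407 with TNF, 222.3 ± 93.8 with anti-LTBR and 32.5 ± 38.3 with PBS (SD, n = 4 each). Without number 0 the means were 1457 ± 85.3 with TNF, 260.5 ± 66.7 with anti-LTBR and 13.4 ± 3.46 with PBS (SD, n = 3 each). Leaving out number 0 narrowed the spread in all 3 groups that held it. The coefficient of variation was then 5.86% with TNF against 32.3% over all 4 arrays, 25.6% with anti-LTBR against 42.2%, and 25.7% with PBS against 118%.

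The PBS values lay near the bottom of the scale. Ccl5 was above the array median, 106.8 to 139.0, on 13 arrays and below it on 8, which were all 6 PBS arrays and the anti-LTBR arrays at 2 h and 6 h. On 5 of these it was also below the 25th percentile of its own array. The distance to PBS thus depends on a signal near the floor, whereas the distances among the 3 agonist groups at 24 h do not.

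On the scale log2(signal + 10.2), the limma fit over the 15 arrays put Ccl5 7.26 ± 0.50 above PBS with both agonists, 5.16 ± 0.46 with TNF and 2.68 ± 0.46 with anti-LTBR (SE). The combination was 2.11 ± 0.50 above TNF and 4.58 ± 0.50 above anti-LTBR (SE). With numbers 1 to 3 only, the differences from PBS were 7.79 with both agonists, 5.96 with TNF and 3.50 with anti-LTBR. The combination was then 1.82 above TNF and 4.29 above anti-LTBR. Omitting number 0 thus widened the differences of the single agonists from PBS and narrowed those between the combination and either agonist.

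Within each number the same order held without exception. The ratio of the combination to TNF was 3.88, 3.83 and 3.01 in numbers 1, 2 and 3, and that of the combination to anti-LTBR 30.0, 18.2 and 15.3. TNF over PBS was 7.31 in number 0, against 111, 152 and 80.3 in numbers 1, 2 and 3. Anti-LTBR over PBS was 1.20 in number 0, against 14.4, 32.0 and 15.8 in numbers 1, 2 and 3. The ratios to PBS rest on PBS signals that were low on every array, so their size is loosely fixed, while the ratio of the combination to TNF varied little.

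Other cell markers also differed between the numbers. The summed macrophage and monocyte markers were 3142 to 4483 on the 24 h arrays numbered 3, against 1120 to 2047 on the other 24 h arrays. Number 3 had the lowest Ccl5 signal of the 3 combination arrays and read within or below the range of numbers 1 and 2 with either agonist alone. With PBS its signal of 17.0 was the highest of numbers 1 to 3, against 13.2 and 10.1 in numbers 1 and 2. The summed signal of 3 adventitial fibroblast markers was 5619 to 7266 on the 24 h arrays numbered 0 and 5166 to 6109 on the earlier arrays. On the arrays numbered 1 to 3 it was 2909 to 4741. The part of the macrophage and monocyte markers, of the T and NK cell markers, and of the endothelial and fibroblast markers in number 0 was not tested.

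The joint effect of the agonists was above additivity on the linear scale, whereas its sign on the log2 scale depended on the pseudocount. On the linear scale the combination raised Ccl5 above PBS by 5202, against 1414 for the sum of the increments with TNF (1224) and with anti-LTBR (189.8) in the group means. The combined increment was thus 3.68 times the sum. Within number 1 it was 5691, against a sum of 1635. Within number 2 it was 5875, against 1837, and within number 3 it was 4098, against 1600. These are 3.48, 3.20 and 2.56 times the sum, with a mean of 3.08 ± 0.47 (SD, n = 3), so the combination exceeded additivity of signals in all 3 numbers.

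**Figure D2:**
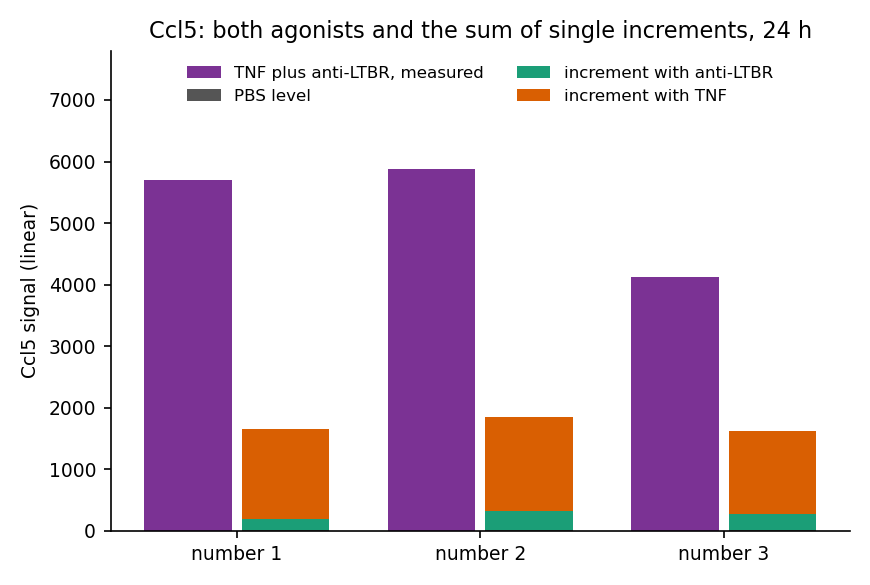
Linear Ccl5 signal at 24 h in numbers 1, 2 and 3. In each number the left bar is the array with TNF plus anti-LTBR and the right bar stacks the PBS level, too low to see, and the increments with anti-LTBR and with TNF; the left bars reach 5704.1, 5885.3 and 4115.4, against stacks of 1648, 1848 and 1617.

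On the log2 scale, where additivity means that the fold changes of the 2 agonists multiply, the interaction was −0.58 ± 0.68 (SE) over the 15 arrays. Within numbers 1, 2 and 3 it was −1.15, −2.10 and −1.77, with a mean of −1.68 ± 0.48 (SD, n = 3). The combination thus fell short of the product of the single fold changes in each number at this pseudocount. The sign was not stable over the choice of pseudocount, since with 50 in place of 10.2 the interaction was 0.32 over all arrays, and −0.01, −0.73 and −0.69 within the 3 numbers. Ccl5 in these cells was above the sum of the increments and, on the arrays numbered 1 to 3, at or below the product of the folds.

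Other genes that responded to the combination give a scale for these values. limma with Benjamini-Hochberg adjustment called 226 of 12446 tested genes higher with both agonists than with PBS (1.82%), and 221 of them had an increment above 0 with each agonist alone. Their linear ratio of the combined increment to the sum had a median of 1.35 and quartiles of 1.03 and 1.77, and 172 of the 221 were over 1. Ccl5 was exceeded by 4, Spib, Itih5, Pex5 and Cxcl10, of which Cxcl10 is a chemokine for the receptor Cxcr3. The ratios of Spib and Pex5 stand on TNF increments smaller than the SD of the TNF arrays, and the combination arrays of Spib read 1084.6, 364.7 and 158.6. Itih5 averaged 87.45 ± 16.2 with anti-LTBR, against 72.75 ± 18.6 with PBS (SD, n = 4 each). Its other probe sets gave log2 differences of −0.17 to 0.49 with both agonists, against 1.92 for the one used. With numbers 1 to 3 only, the median ratio was 1.17 and 6 of the 221 were above Ccl5, at 3.09. The log2 interaction had a median of 0.06 over the 221 genes and 207 of them lay above Ccl5. With numbers 1 to 3 only, the median was −0.06 and 219 lay above Ccl5. Ccl5 therefore stood near the top of the linear ratio. At the pseudocount of the main fit it stood near the bottom of the log2 interaction. Both places are among genes picked for their rise with the combination, as Ccl5 was itself. With a pseudocount of 50 the interaction of Ccl5 was 0.32 over all arrays and −0.48 with numbers 1 to 3 only. Its place among the 221 genes was not computed at that pseudocount. No gene passed the limma test of the log2 interaction after adjustment (165 of 12446 had an unadjusted p under 0.05). That fit does not use the array number. With the number as a block 2 passed, and 1199 had an unadjusted p under 0.05.

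Over time, on the arrays numbered 0, Ccl5 was already higher with TNF at 2 h and had its largest distance from PBS at 6 h. With TNF the signal was 244.3 at 2 h, 698.3 at 6 h and 656.0 at 24 h, against 34.0, 32.2 and 89.8 with PBS at the same times. The log2 differences were 2.53, 4.06 and 2.74. The TNF signal at 24 h was close to that at 6 h, and the smaller log2 difference at 24 h went with the higher PBS value. These are single arrays and allow no test.

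With anti-LTBR the Ccl5 signal was 7.4 at 2 h, 82.3 at 6 h and 107.7 at 24 h, against the same PBS arrays. The log2 differences were −1.33, 1.13 and 0.24. At 2 h the anti-LTBR signal was below the 25th percentile of its array and the PBS signal just above that of its own. The sign of that difference thus concerns signals at the bottom of the scale. The summed endothelial markers were 6654 with anti-LTBR, 6800 with TNF and 7182 with PBS at 2 h, and 7681, 6669 and 7753 in the same order at 6 h. At 24 h in number 0 they were 8587, 9056 and 7664 in that order. Their part in the time course was not tested. The small distance of anti-LTBR from PBS at 24 h concerned number 0, and numbers 1 to 3 have no earlier arrays.

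**Figure D3:**
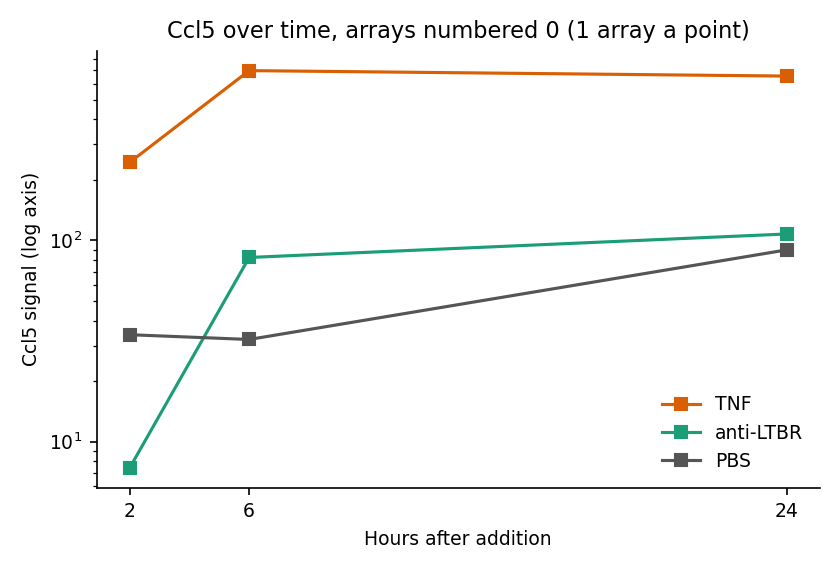
Ccl5 signal on the arrays numbered 0 at 2, 6 and 24 h, on a log axis, 1 array a point. TNF lies above anti-LTBR and PBS at all 3 times, anti-LTBR lies below PBS at 2 h and above it at 6 h, and PBS reads 89.8 at 24 h, its highest value.

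Among the 226 genes higher with the combination at 24 h, the median log2 difference with TNF on the arrays numbered 0 was 0.37 at 2 h, 0.66 at 6 h and 0.35 at 24 h. Ccl5 was exceeded by 10 of these genes at 2 h, 1 at 6 h and 2 at 24 h. A larger TNF difference at 6 h than at 24 h, as in Ccl5, was seen in 173 of the 226. A larger one at 2 h than at 24 h was seen in 122, and Ccl5 was not among these.

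The genes whose log2 values followed Ccl5 most closely over the 15 arrays at 24 h included class I heavy chains, immunoproteasome subunits and interferon-induced GTPases. They are named by Pearson's r with Ccl5, which describes arrays that share their groups and their numbers, and no test is attached. The highest was Tlr2, a receptor for bacterial lipoproteins (r = 0.980), and then came H2-K1, a classical class I heavy chain (0.973), and Relb, the NF-kB subunit of the alternative arm (0.967). Slco2a1, a prostaglandin transporter (0.966), Gbp2, an interferon-induced GTPase (0.963), and Psmb8, an immunoproteasome subunit (0.960), came next. The remaining 4 of the 10 were H2-D1 (0.954) and H2-M3 (0.952), both class I heavy chains, Ifi47 (0.949), a further interferon-induced GTPase, and Psmb9 (0.947), a second immunoproteasome subunit. Over the 12 arrays numbered 1 to 3, 7 of these 10 were again among the 10 highest, while Gbp2, Psmb9 and H2-D1 ranked 13, 16 and 22. Over all other tested genes r had a median of −0.003 and its 5th and 95th percentiles were −0.51 and 0.55, and 37 genes were over 0.9. The class I genes are close paralogs, and their probe sets may detect one another.

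These genes shared the order of the groups with Ccl5 but not the size of its steps. Tlr2 averaged 1871 ± 473 with both agonists (SD, n = 3), 1222 ± 241 with TNF, 743.8 ± 106 with anti-LTBR and 406.8 ± 71.8 with PBS (SD, n = 4 each). Psmb8 averaged 1446 ± 262 with both agonists (SD, n = 3), 666.4 ± 251 with TNF, 275.6 ± 56.5 with anti-LTBR and 122.7 ± 34.1 with PBS (SD, n = 4 each). Over the 10 genes the log2 difference of the combination from PBS ran between 0.98 in Slco2a1 and 3.70 in Psmb9, against 7.26 in Ccl5, taking for each gene the probe set of highest mean. Other probe sets of these genes gave other sizes, up to 4.17 in H2-K1, and those of H2-D1 disagreed in direction, between −0.32 and 2.51. Their ratio of the combined increment to the sum of the single ones ran between 0.97 in H2-K1 and 1.97 in Psmb9, against 3.68 in Ccl5. With numbers 1 to 3 only, which all groups share, it ran between 0.89 in H2-K1 and 1.66 in Psmb9, against 3.09 in Ccl5. A high r with Ccl5 at 24 h therefore did not mean a joint effect of like size.

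The likeness of some of these genes to Ccl5 held at 24 h and not over all times. With the arrays at 2 h and 6 h added, r over 21 arrays was 0.968 for H2-K1, 0.959 for Psmb8 and 0.949 for H2-M3, which then ranked 1, 2 and 3 of all tested genes. It was 0.778 for Tlr2, at rank 133, and 0.786 for Relb, at rank 122. The TNF differences on the arrays numbered 0 show the contrast. The log2 difference of Tlr2 was 2.89 at 2 h, 2.73 at 6 h and 0.92 at 24 h, and that of Relb 2.69, 1.90 and 0.77, so both were largest at the earliest time. The log2 difference of H2-K1 was 0.46, 0.97 and 1.17 at the same times and was largest at 24 h. Psmb8, with 1.46, 2.74 and 1.34, and Gbp2, with 2.48, 3.21 and 1.01, were largest at 6 h, as Ccl5 was.

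**Figure D4:**
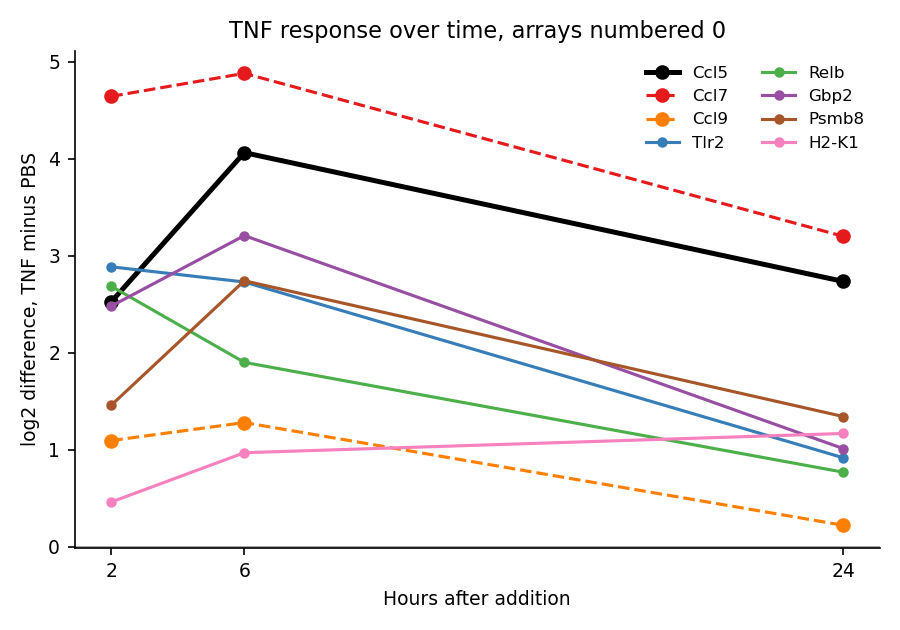
log2 difference of TNF from PBS at 2, 6 and 24 h on the arrays numbered 0 (1 array a group) for Ccl5, for 5 of the genes most like it at 24 h (solid lines) and for the chemokines Ccl7 and Ccl9 (dashed). Ccl5, Gbp2 and Psmb8 are largest at 6 h, Tlr2 and Relb at 2 h, and H2-K1 at 24 h.

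The 5 genes with the lowest r at 24 h were Tmpo (−0.866), a nuclear envelope protein, Col19a1 (−0.862), a collagen, Kazald1 (−0.857), Csrp1 (−0.852), a LIM protein of smooth muscle, and Fgfr2 (−0.850), a fibroblast growth factor receptor. Their log2 difference of the combination from PBS lay between −1.14 in Col19a1 and −0.39 in Tmpo. Csrp1, for example, averaged 5640 with both agonists, 6676 with TNF, 7090 with anti-LTBR and 7972 with PBS. These values were below PBS in each agonist group, the reverse of the order of Ccl5.

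Once the group means were removed, other genes came closest to Ccl5. The 10 genes with the highest r between deviations from the group means were Polr2i (0.839), an RNA polymerase II subunit, Tmub2 (0.807), Tcaf1 (0.791), Pspn (0.769), Mdn1 (0.747), Gbp2 (0.724), Mamld1 (0.721), Znfx1 (0.721), Prcd (0.716) and Tlr2 (0.716). Only Gbp2 and Tlr2 were also among the 10 most like Ccl5 across the groups. The deviations of Ccl5 itself were led by number 0, at 1.57 with PBS, −0.85 with TNF and −0.88 with anti-LTBR on the log2 scale. The largest on an array of numbers 1 to 3 was −0.73, on PBS array 2. The r of the deviations thus depends strongly on these 3 arrays.

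The genes around Ccl5 in its pathway were read from 4 lists, of which 46 genes were listed, 38 were on the array with a probe set for 1 gene and 26 passed the filter on low signals. limma called 7 of the 26 higher with both agonists (background 1.82%), 4 with TNF (background 0.337%) and 2 with anti-LTBR (background 0.129%). It called 0 lower in any of the 3, against 79, 0 and 0 of 12446 over all genes in the same order. At an unadjusted p under 0.05 there were also 0 lower, against 611, 230 and 212 of 12446 over all genes. The smallest adjusted p of a call was 1.48e-05, for Irf1 with both agonists. The array numbers paired the arrays. With the number as a block 11 members were called higher with both agonists (background 9.1%), 7 with TNF (background 3.05%) and 7 with anti-LTBR (background 2.56%). Again 0 were lower, against 1290, 358 and 277 of 12446 over all genes in the same order. At these shares few or none of 26 would be called lower, so the counts of 0 say little about the lists. The median log2 difference over the 26 was 0.16 with both agonists, 0.07 with TNF and 0.10 with anti-LTBR, against 0.00, −0.02 and −0.01 over all tested genes. Most members thus lay near 0, and a few had large differences. The combination is set against the same PBS arrays as the single agonists, so the 3 counts are not independent. The lists were also chosen with earlier results of these data known, so the counts describe them and are no independent support.

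**Figure D5:**
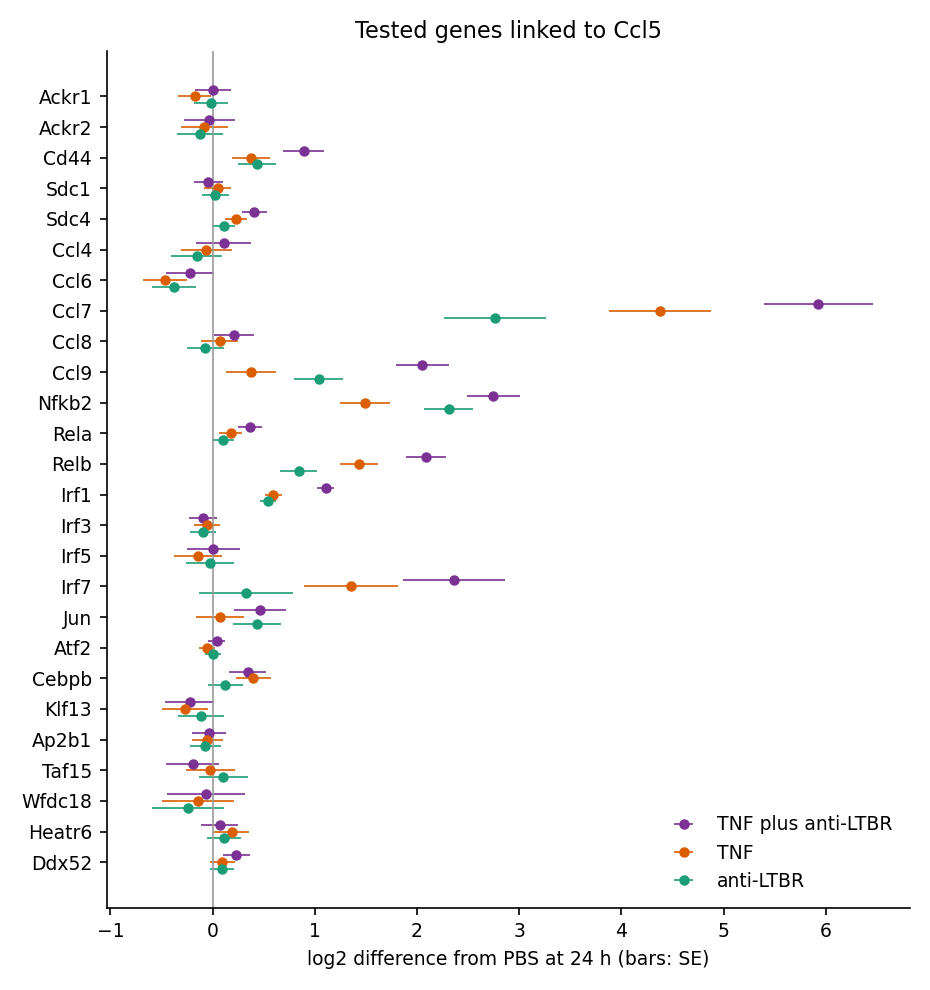
log2 difference from PBS at 24 h for the 26 tested genes of the 4 lists, with the SE of the limma fit as bars. Ccl7, Ccl9, Nfkb2, Relb, Irf1 and Irf7 stand to the right with TNF plus anti-LTBR, and most others lie near 0.

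Of the receptors and binding proteins, 5 of 8 could be tested and 1 was called. The signals of Ccr1 and Ccr3, receptors for Ccl5, were low, between 16.2 and 83.0 and between 3.9 and 57.7 over the 21 arrays, and neither was tested. Cd44, a surface glycoprotein that carries glycosaminoglycans and can hold the chemokine, was higher with both agonists, with 8790.4, 6866.1 and 7063.0 in numbers 1, 2 and 3, against 3683.8, 5491.4, 3411.3 and 3885.1 with PBS in numbers 0 to 3, and the groups did not overlap. Its log2 difference was 0.89 ± 0.20 (SE; limma, adjusted p = 0.0275). This is the probe set of highest mean of the 4 for Cd44, and the others gave differences between 0.11 and 1.13. The call was lost when any of 6 arrays was left out, each combination array or PBS array 0, 2 or 3, with an adjusted p of up to 0.146, and also with arrays scaled to equal medians and with numbers 1 to 3 only. With the block, Cd44 was called in all 3 comparisons and Sdc4, the proteoglycan syndecan-4, with both agonists (log2 difference 0.41). Ackr1 and Ackr2, scavenging receptors for chemokines, and Sdc1 did not pass in any comparison.

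Of the other ligands of these receptors, 5 of 8 could be tested, and 1 was called with TNF and 2 with both agonists. Ccl7, a monocyte chemoattractant, had the response nearest in size to that of Ccl5. Its signal was 2540 ± 1324 with both agonists (SD, n = 3), 917.0 ± 622 with TNF, 291.3 ± 202 with anti-LTBR and 30.8 ± 15.7 with PBS (SD, n = 4 each). The log2 difference was 5.93 ± 0.54 with both agonists (SE; limma, adjusted p = 2.62e-05) and 4.38 ± 0.50 with TNF (adjusted p = 0.00073). With anti-LTBR it was 2.76 ± 0.50 (adjusted p = 0.0512), and that comparison was called with the block. The combined increment of Ccl7 was 2.19 times the sum of the single ones, and 1.93 times with numbers 1 to 3 only.

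Ccl7 also resembled Ccl5 in time. On the arrays numbered 0 its TNF signal was 1586 at 2 h, 2224 at 6 h and 523.1 at 24 h, against 53.7, 65.7 and 47.8 with PBS. Its log2 differences of 4.64, 4.88 and 3.20 were largest at 6 h, as in Ccl5, but its TNF signal at 24 h was lower than at 6 h, while that of Ccl5 was close to it. Over the 15 arrays at 24 h its r with Ccl5 was 0.939.

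Ccl9, a ligand of Ccr1 and the nearest annotated neighbour of Ccl5 on one side, had its larger single-agonist step at 24 h with anti-LTBR. It averaged 3495 ± 1108 with both agonists (SD, n = 3), 1071 ± 210 with TNF, 1757 ± 624 with anti-LTBR and 815.5 ± 110 with PBS (SD, n = 4 each). Its log2 difference was 2.05 ± 0.26 with both agonists (SE; limma, adjusted p = 0.000551), and 0.38 ± 0.24 with TNF and 1.04 ± 0.24 with anti-LTBR did not pass. The anti-LTBR comparison was called with the block. The mean was thus higher with anti-LTBR than with TNF, whereas Ccl5 was higher with TNF on every array. The difference between these orders was not tested. At the earlier times in number 0 the step of Ccl9 was larger with TNF, with log2 differences of 1.10 at 2 h and 1.28 at 6 h, against −0.08 and 0.14 with anti-LTBR. Ccl3, Ccl11 and Ccl24 had signals of at most 51.3 and were not tested, and Ccl4, Ccl6 and Ccl8 did not pass.

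Of 14 transcription factors known at the Ccl5 promoter, 11 were tested, and 4 were called higher with both agonists, 3 with TNF and 2 with anti-LTBR. Nfkb2, the precursor of p52, averaged 1343 ± 481 with both agonists (SD, n = 3), 541.8 ± 111 with TNF, 957.9 ± 169 with anti-LTBR and 189.7 ± 55.7 with PBS (SD, n = 4 each). Its log2 difference was 2.75 ± 0.26 with both agonists (SE; limma, adjusted p = 3.61e-05), 1.49 ± 0.24 with TNF (adjusted p = 0.0134) and 2.31 ± 0.24 with anti-LTBR (adjusted p = 0.0018). A second probe set of Nfkb2, of lower mean, gave smaller differences of 1.32, 0.70 and 1.05 in the same order. Like Ccl9, it had a higher mean with anti-LTBR than with TNF. The TNF call was lost without TNF array 1 (adjusted p = 0.0653) and with arrays scaled to equal medians.

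Relb followed the order of Ccl5, with 883.8 ± 255 with both agonists (SD, n = 3), 551.4 ± 124 with TNF, 357.4 ± 32.2 with anti-LTBR and 195.6 ± 28.2 with PBS (SD, n = 4 each). Its log2 difference was 2.09 ± 0.20 with both agonists (SE; limma, adjusted p = 3.61e-05) and 1.43 ± 0.18 with TNF (adjusted p = 0.00174), and 0.84 ± 0.18 with anti-LTBR passed with the block alone. Relb was itself named above for its r with Ccl5. Rela, the partner of canonical NF-kB, had a log2 difference of 0.36 with both agonists and was called with the block only. With the block Jun was also called with both agonists and with anti-LTBR, and Cebpb, a leucine zipper factor of inflammatory genes, with both agonists and with TNF.

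Irf1 and Irf7, interferon regulatory factors, were called with both agonists, and Irf7 also with TNF under the block. Irf1 averaged 1777 ± 61.3 with both agonists (SD, n = 3), 1247 ± 99.6 with TNF, 1203 ± 66.5 with anti-LTBR and 821.4 ± 58.7 with PBS (SD, n = 4 each), and was also called with each agonist alone. Its log2 differences were 1.11 ± 0.09, 0.60 ± 0.08 and 0.55 ± 0.08 in the order both, TNF and anti-LTBR (SE; limma, adjusted p = 1.48e-05, 0.00227 and 0.0129). The anti-LTBR call was lost when any of PBS array 2 or 3 or anti-LTBR array 1 or 3 was left out, with an adjusted p of up to 0.0729. Both single-agonist calls of Irf1 were lost with arrays scaled to equal medians. Irf7 had a log2 difference of 2.36 ± 0.50 with both agonists (SE; limma, adjusted p = 0.0192). Its call was lost without any one of the 3 combination arrays or PBS array 0 or 2, with an adjusted p of up to 0.111. Irf3, Irf5, Atf2 and Klf13 did not pass in any comparison, with or without the block, and Rel, with a signal of 34.0 to 133.1, was not tested.

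The neighbours of Ccl5 on its chromosome were mostly unlike it. Of the 10 nearest protein-coding genes on each side on chromosome 11, in the RefSeq table for GRCm38.p6, 15 were on the array and 8 were tested, and 1, Ccl9, was called with both agonists. The other chemokine genes next to it, Ccl6 and Ccl4, had log2 differences of −0.22 and 0.11 with both agonists, and a second probe set of Ccl6 gave −0.82. The remaining 5, Ap2b1, Taf15, Wfdc18, Heatr6 and Ddx52, lay between −0.20 and 0.23 and did not pass. Their other probe sets, where present, lay between −0.49 in Taf15 and 0.47 in Heatr6.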

How the data were processed

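RNA from cultured mouse aortic smooth muscle cells was measured on 21 Affymetrix arrays. Per the submitters' processing notes the deposited intensities come from GCOS 1.4. They are linear, and with 2% of values trimmed from either end every array averaged 500.0. The summarization method was not given in the sources used here, nor were the background correction and any detection filter. The largest value on an array was 20140 to 26348. The number of arrays limits the precision.

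Of 45101 probe sets, 64 controls were left out, and 34945 had 1 gene symbol in the platform annotation, 932 several and 9160 none. A probe set was kept where 3 or more of the 15 arrays at 24 h had it above the array median (25110), with the probe set of highest mean for each gene (12446 genes). Values were taken as log2(signal + 10.2), with the pseudocount equal to the 10th percentile of all 24 h values. limma 3.58.1 in R 4.3.3 fitted 4 group means (11 residual degrees of freedom, 8 with the number as a block), with a variance trend and Benjamini-Hochberg adjustment over all tested genes. A call is an adjusted p under 0.05. The fit was tested on simulated data.

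Groups and numbers came from the labels. Whether arrays came from separate cultures is not stated there, so p-values reflect the spread between these samples alone, which may be technical. Deviations from the group means correlated at 0.46 to 0.81 over 21 same-number pairs and at −0.58 to 0.21 over the other 63 pairs, so the numbers pair the arrays. At 2 h and 6 h each group had 1 array. The named genes are Ccl5, the 10 most and 5 least like it over the 24 h arrays, the 10 most like it in deviations, and the tested members of 4 lists. One listed gene is not reported here. Ccl5 and the lists were chosen with earlier results of these data known. Alternatives covered the pseudocount, scaling, filter, variance trend, block, rank correlation and left-out arrays.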

Additional observations from a re-analysis of the deposited data

Results flagged for a closer look

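Highest and lowest arrays were examined in 54 sets of 4 arrays, and in 5 the extreme array lay farther from the nearest other, relative to the range, than Dixon's 95% critical value. Chance flags about 1 in 20 such sets. The Ccl5 signal of 89.8 on the PBS array numbered 0 at 24 h was 1, with a gap of 0.91 of the range, and the other 3 PBS arrays read at most 17.0. The summed endothelial markers on the arrays numbered 0 were flagged in all 3 groups that held that number, at 9055.8 with TNF, 8586.6 with anti-LTBR and 7663.9 with PBS. The summed macrophage and monocyte markers were flagged at 4220.8 on the PBS array numbered 3.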

How the results depend on the processing

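Ccl5 kept its direction in every comparison with PBS and between the combination and either agonist at 24 h under all alternatives run, with the combination 1.82 to 2.27 above TNF. With a pseudocount of 50 the log2 differences from PBS were 6.08 (both agonists), 4.01 (TNF) and 1.75 (anti-LTBR), the log2 interaction changed sign to 0.32, the TNF difference at 6 h was 3.19 and the anti-LTBR difference at 2 h −0.55 (−2.06 with a pseudocount of 1), as a larger constant lowers the differences of weak signals. With numbers 1 to 3 only, the differences were 5.96 (TNF) and 3.50 (anti-LTBR), the interaction −1.68 (−2.35 with a pseudocount of 1, chosen after seeing the data) and the linear ratio 3.09. Leaving out 1 array gave 7.02 to 7.79 (both), 4.91 to 5.68 (TNF), 2.44 to 3.21 (anti-LTBR), −1.10 to −0.33 for the interaction and 3.22 to 4.07 for the ratio.

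With the replicate block the linear ratio within numbers was 3.08, and 5 of the 10 genes most like Ccl5 remained (6 by Spearman's rho). The main calls were 305 genes (both agonists), 42 (TNF) and 16 (anti-LTBR). The replicate block gave 2422, 738 and 595, equal medians with the block, chosen after seeing the data, 1780, 483 and 471, and an unadjusted p under 0.05 gave 1427, 583 and 536. Equal medians alone gave 181 genes for both agonists and 7 for anti-LTBR; without the filter 8 and without the variance trend 9 were called for anti-LTBR. List members called were 11, 7 and 7 with the block at either scaling, against 7, 4 and 2, and equal medians alone gave 2 with TNF and 1 with anti-LTBR. Equal medians with the block split the calls 344 higher to 139 lower for TNF, against 380 to 358 with the block alone, and 410 to 61 for anti-LTBR, against 318 to 277. The cause was not tested.

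Leaving out 1 array gave 166 to 316 genes for both agonists, 21 to 50 for TNF and 6 to 27 for anti-LTBR, and 1 to 3 list members for anti-LTBR. For both agonists the count was 166 without combination array 1, 169 without combination array 2 and 195 without PBS array 2. For TNF it was 21 without TNF array 1, 26 without TNF array 2, PBS array 1 or PBS array 2, and 27 without TNF array 3. For anti-LTBR it was 27 without PBS array 0 and 6 to 10 without PBS array 1, 2 or 3, anti-LTBR array 1, 2 or 3, TNF array 1 or 2, or combination array 2.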
